A study of Mus musculus with 18 samples.

Results

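Livers of 3 male mice that had low-dose penicillin (LDP) from birth were compared with livers of 3 males that had no antibiotic. The samples were chosen by their labels, LDP males 8, 10 and 11 and control males 5, 6 and 7, and they make up 6 of the 18 samples of the series. All 6 were C57BL6J mice weaned at week 4, moved to a high-fat diet with 45% of its energy from fat at week 6, and sampled at week 8, so the antibiotic is the labelled difference between them. The dose, the cage and the litter of each mouse are not given in the sources used here. The rest of the series holds LDP and control females of the same strain, and germ-free mice that were given the gut microbiota of LDP or control mice. The comparison asks how the male liver transcriptome differed after the antibiotic, over 15438 genes with enough counts to test.

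The liver makes cholesterol from acetyl-CoA through mevalonate and squalene. The transcription factor SREBP2 switches on nearly every enzyme of this route when membranes are short of sterol. The liver is also reached by portal blood from the gut, and Kupffer cells, the macrophages fixed in its sinusoids, meet that blood first.

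Each mouse had 70336366 to 74418889 counts, and 19644 to 20030 genes had at least 1. Levels below are CPM, a gene's counts scaled to a common library size with edgeR's TMM factors. They are given in the order LDP males 8, 10 and 11 and then control males 5, 6 and 7, and differences are log2 of LDP over control with their standard error. As a check of the tissue, the albumin transcript took 6.97 to 8.22% of all counts in LDP males and 5.82 to 6.77% in controls. Marker genes of skeletal muscle summed to at most 0.0718 CPM and those of adipocytes to at most 0.343 CPM in any mouse.

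LDP male 11 stood apart from the other LDP males. The root mean square log2 difference over genes was 0.378 between LDP males 8 and 10, and 0.366 to 0.390 among the 3 controls. Between LDP male 11 and LDP males 8 and 10 it was 0.460 and 0.527, more than between LDP male 11 and any control (0.421 to 0.424). Results are therefore given with and without LDP male 11, the latter being 2 LDP males against 3 controls. That mouse was singled out by its expression, so counts and p-values without it show how results depend on it. They are not independent evidence for any gene or group.

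**Figure D1:**
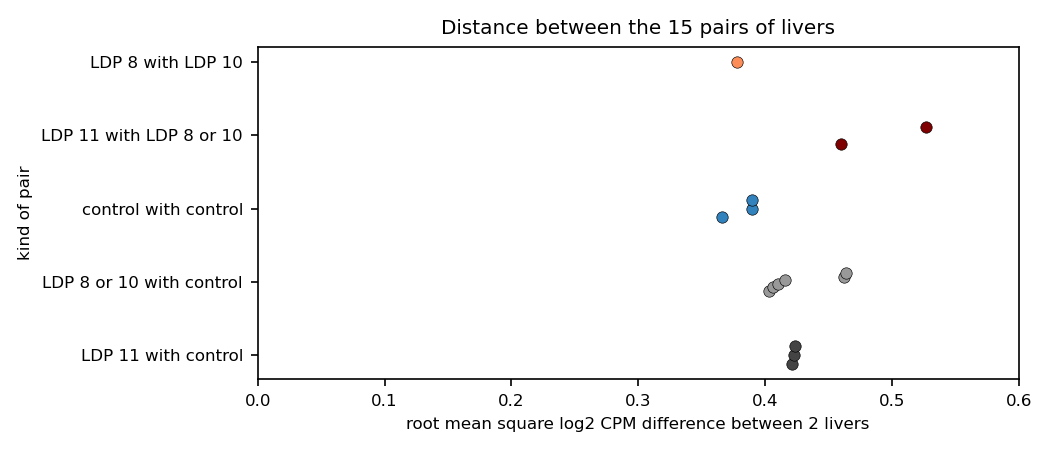
Root mean square difference in log2 CPM over genes for each of the 15 pairs of mice, by kind of pair, with 1 point per pair. LDP male 11 lies farther from LDP males 8 and 10 (0.460 and 0.527) than from the 3 controls (0.421 to 0.424). LDP males 8 and 10 lie 0.4031 to 0.4636 from the controls.

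By edgeR's quasi-likelihood test with Benjamini-Hochberg adjustment, 1 gene of 15438 passed an adjusted p of 0.05, or 0.00648% of the genes tested. That gene was Spry4, and it fell. At an unadjusted p under 0.05, 490 genes were higher (3.17%) and 318 lower (2.06%). In 878 genes (5.69%) all LDP males stood above all controls, and in 747 (4.84%) all stood below. DESeq2 on the same counts called 38 genes higher (0.246%) and 4 lower (0.0259%) at an adjusted p of 0.05. It gave no adjusted p for 3592 of the 15438 genes, which count as not called in these shares. Without LDP male 11, edgeR called 53 genes higher (0.337% of 15742) and 13 lower (0.0826%), and at an unadjusted p under 0.05 it had 1172 higher (7.45%) and 907 lower (5.76%). These shares are the background for the counts in each gene group below. Of the 66 genes called without LDP male 11, that mouse was on the same side of the controls as the other LDP males in 34, within the control range in 13 and on the opposite side in 19.

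Cholesterol synthesis genes were higher on average in LDP males. All 22 genes measured were higher on average, against 50.7% of all genes tested, and their median log2 difference was 0.94, against 0.002 over all genes. In 19 of the 22 no LDP male overlapped a control, and 20 had an unadjusted p under 0.05. By edgeR with adjustment over all genes 0 of the 22 passed, 18 were DESeq2 calls, and 17 were edgeR calls when LDP male 11 was left out. The lists of sterol genes were drawn up with results of these mice known, so the counts describe the group and are not independent evidence for it.

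The first steps build mevalonate from acetyl-CoA. Acat2, which joins acetyl-CoA units in the cytosol, was at 40.1, 37.9 and 30.9 CPM against 24.4, 26.2 and 24.3, a log2 difference of 0.54 ± 0.0977. Hmgcs1, the cytosolic HMG-CoA synthase, was at 312, 388 and 193 CPM against 120, 116 and 111 (1.36 ± 0.246). In both genes every LDP male stood above every control, and LDP male 11 was the LDP mouse nearest to the controls. Their unadjusted p by edgeR was 0.000348 and 0.00138, and their adjusted p was 0.871 in each case.

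Mevalonate is then phosphorylated and decarboxylated to isoprene units. Mvk, mevalonate kinase, was at 19.5, 20.5 and 12.2 CPM against 8.52, 8.73 and 10.5 (0.91 ± 0.202). Mvd, the decarboxylase, was at 11.01, 15.1 and 6.74 CPM against 4.05, 4.14 and 4.93 (1.33 ± 0.287). Idi1, which isomerises the isoprene unit, was at 32.05, 42.6 and 14.6 CPM against 7.87, 9.70 and 9.62 (1.71 ± 0.412). LDP males 8 and 10 were well above every control in all 3, and LDP male 11 lay between. Pmvk, the kinase after Mvk, was at 33.7, 36.8 and 19.4 CPM against 14.3, 15.9 and 19.5 (0.86 ± 0.262), so here LDP male 11 lay within the control range. Ggps1, which leads away from sterols to geranylgeranyl diphosphate, was at 9.56, 8.02 and 7.70 CPM against 8.74, 7.83 and 7.84 and did not differ beyond its spread (0.05 ± 0.112).

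Isoprene units are joined to farnesyl diphosphate and then to squalene. Fdps, farnesyl diphosphate synthase, was at 113, 131 and 58.5 CPM against 24.7, 36.3 and 41.5 (1.56 ± 0.367). Fdft1, squalene synthase, was at 102, 115 and 76.9 CPM against 48.2, 56.3 and 54.3 (0.89 ± 0.144), with an adjusted p of 3.35e-06 by DESeq2. Both were above every control in every LDP male. Exons of Fdft1 overlap those of Ctsb on the other strand over 774 bases, and since the strandedness of the libraries is not given in the sources used here, reads there cannot be told apart.

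From squalene on, the sterol ring is closed and trimmed. Sqle, the epoxidase that commits squalene to sterols, had the largest difference of the pathway, at 94.5, 122 and 38.2 CPM against 23.3, 27.6 and 23.4 (1.78 ± 0.454). Lss, which closes the ring, was at 51.6, 61.5 and 40.9 CPM against 21.7, 27.2 and 30.2 (0.96 ± 0.177). All LDP males were above all controls in both, but Sqle varied more among them, and its unadjusted p was 0.0116 against 0.00114 for Lss. Cyp51, the lanosterol demethylase, was at 169, 206 and 102 CPM against 61.3, 73.5 and 72.6 (1.20 ± 0.260). Msmo1, which oxidises the next methyl groups, was at 224, 222 and 122 CPM against 64.8, 70.7 and 77.1 (1.42 ± 0.247, adjusted p = 6.29e-09 by DESeq2). Nsdhl, of the same demethylase complex, was at 63.8, 74.9 and 34.9 CPM against 21.3, 26.5 and 30.4 (1.15 ± 0.314). In these 3 genes LDP male 11 exceeded every control but stood closer to them than to LDP males 8 and 10.

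The last steps lead to cholesterol itself. Dhcr7, which makes cholesterol from its 7-dehydro form, was at 62.3, 66.3 and 37.9 CPM against 23.3, 25.9 and 34.7 (0.99 ± 0.258). Erg28, a scaffold of the demethylation enzymes, was at 63.3, 62.6 and 52.03 CPM against 38.4, 41.1 and 42.4 (0.55 ± 0.0874, edgeR unadjusted p = 0.000141, adjusted p = 0.871). Both genes were above every control in every LDP male. Ebp, the sterol isomerase, overlapped between the groups at 127, 132 and 141 CPM against 119, 124 and 134 (0.09 ± 0.0738), and it was the member of the 22 in which LDP male 11 was not the lowest LDP mouse. LDP male 11 was the lowest LDP mouse in 21 of the 22, yet above every control in 20, and without it the median log2 difference was 1.11.

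**Figure D2:**
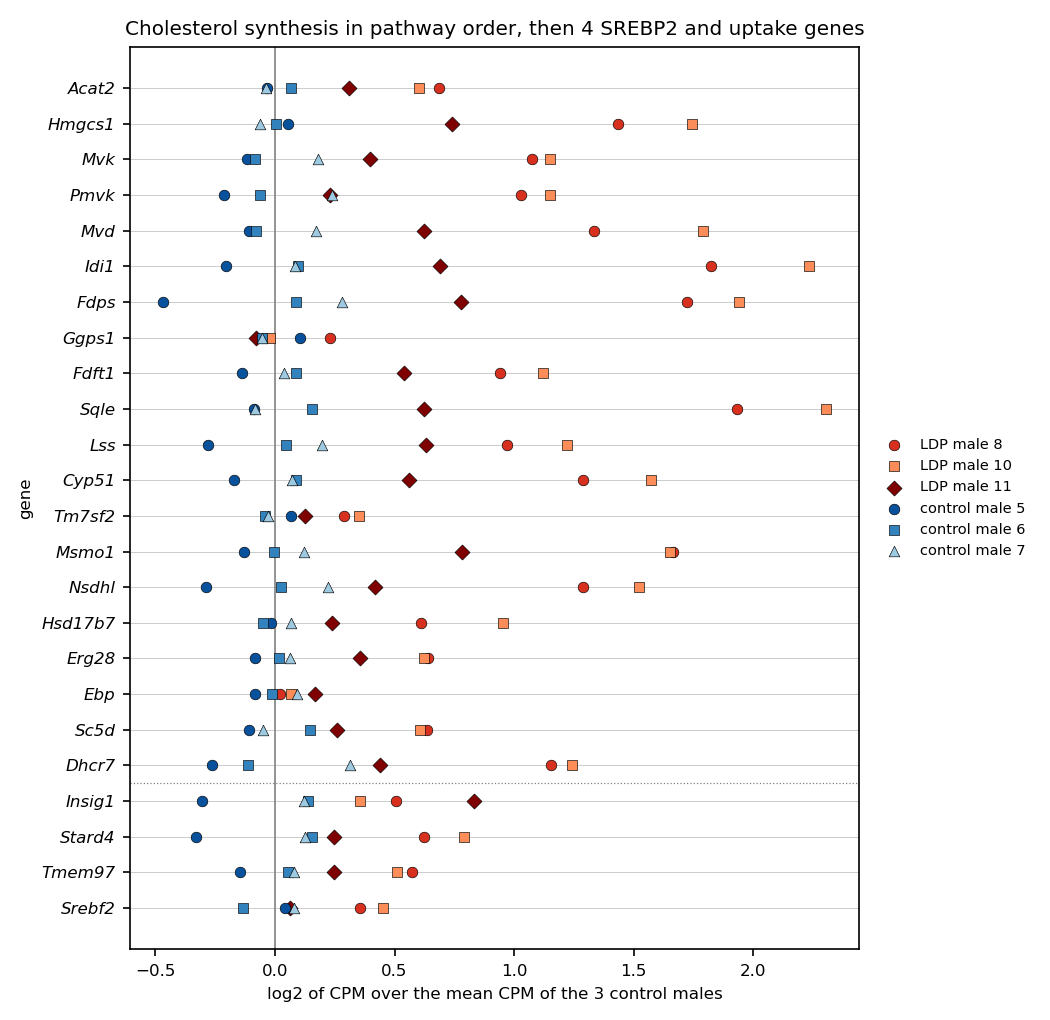
Each point is 1 mouse, placed by log2 of its CPM over the mean of the 3 controls, for 20 of the 22 cholesterol synthesis genes in pathway order and, under the dotted line, 4 genes of SREBP2 sensing and sterol transport. LDP males 8 and 10 lie farthest to the right in most synthesis genes, with LDP male 11 between them and the controls, whereas in Ggps1, Ebp and Pmvk the groups overlap.

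Windows of 250 bases before the gene start were taken from RefSeq (build GRCm38.p6), which held 17 of the 22 cholesterol genes. Of those, the 4 with the largest difference are shown, since SREBP2 targets are known by elements near their start. They lie at chr13:119690101-119690350 (plus strand), chr8:122443423-122443672 (minus strand), chr13:8885356-8885605 (plus strand) and chr8:64733579-64733828 (minus strand). Each is printed 5′ to 3′ on the strand of its gene. Capitals mark matches on either strand to CCAAT, the box that NF-Y binds, or to TCACNCCAC, a strict form of the sterol regulatory element, and no match to one overlaps a match to the other.
Hmgcs1: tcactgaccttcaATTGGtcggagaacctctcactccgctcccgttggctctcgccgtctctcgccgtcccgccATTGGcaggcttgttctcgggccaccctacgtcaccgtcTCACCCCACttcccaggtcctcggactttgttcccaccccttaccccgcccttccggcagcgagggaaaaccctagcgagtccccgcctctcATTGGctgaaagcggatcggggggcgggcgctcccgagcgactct
Mvd: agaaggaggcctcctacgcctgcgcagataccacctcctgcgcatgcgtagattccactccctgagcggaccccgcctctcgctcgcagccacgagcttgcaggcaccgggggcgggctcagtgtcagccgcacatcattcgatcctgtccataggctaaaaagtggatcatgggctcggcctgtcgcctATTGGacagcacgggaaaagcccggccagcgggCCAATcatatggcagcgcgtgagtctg
Idi1: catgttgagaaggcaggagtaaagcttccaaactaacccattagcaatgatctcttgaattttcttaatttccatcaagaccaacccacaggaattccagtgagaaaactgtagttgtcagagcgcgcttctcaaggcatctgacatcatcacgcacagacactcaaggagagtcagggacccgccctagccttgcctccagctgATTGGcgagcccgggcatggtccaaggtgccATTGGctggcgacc
Msmo1: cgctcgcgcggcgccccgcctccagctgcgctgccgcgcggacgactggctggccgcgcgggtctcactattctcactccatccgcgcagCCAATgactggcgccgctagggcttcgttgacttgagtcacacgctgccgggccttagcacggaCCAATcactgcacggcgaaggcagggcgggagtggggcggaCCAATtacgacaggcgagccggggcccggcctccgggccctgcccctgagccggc
The Hmgcs1 window holds 1 match to TCACNCCAC and 3 to CCAAT, and those of Mvd, Idi1 and Msmo1 hold 2, 2 and 3 matches to that box. A CCAAT match was found in 15 of the 17 cholesterol genes (88.2%), against 37.5% of the 27025 genes with a window, and TCACNCCAC in 1 of 17 (5.88%), against 1.22%. The 27025 genes were not limited to those tested in liver. These are matches of letters in a short window and not measured binding, and a part of SREBP2 in the differences was not tested.

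Genes that sense sterol and take it up were higher in part. Of 16 tested 10 were higher, 6 with an unadjusted p under 0.05, and the median was 0.07. Insig1, which holds SREBP precursors in the ER when sterol is plentiful, was at 187, 169 and 234 CPM against 107, 145 and 144 (0.58 ± 0.158). Stard4, which carries sterol between membranes, was at 206, 231 and 159 CPM against 107, 149 and 146 (0.57 ± 0.176). Tmem97, a sterol-responsive membrane protein, was at 61.2, 58.5 and 48.8 CPM against 37.2, 42.7 and 43.5 (0.45 ± 0.0984, DESeq2 adjusted p = 0.0387). The groups did not overlap in these 3 genes, and in Insig1 LDP male 11 was the highest of all mice. Srebf2, which encodes SREBP2, was at 56.3, 60.2 and 46.01 CPM against 45.4, 40.2 and 46.6 (0.30 ± 0.105), with LDP male 11 inside the control range. Scap, Mbtps1 and Mbtps2, which escort and cleave SREBP, differed by 0.03, -0.07 and 0.04, within the spread. Insig2, a relative of Insig1, was at 116, 116 and 163 CPM against 249.7, 136 and 145 (-0.43 ± 0.281), and control male 5 alone was far above the other mice.

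Genes of sterol export and bile acid synthesis were mixed. Of 27 genes 11 were higher, 3 with an unadjusted p under 0.05, and 16 lower, 1 with such a p, and the median was -0.04. Cyp7a1, the rate-limiting enzyme of bile acid synthesis, was at 357, 406 and 251 CPM against 169, 167 and 286 (0.70 ± 0.280, unadjusted p = 0.0468). Control male 7 exceeded LDP male 11, so the groups overlapped. Akr1d1, a reductase of the same route, was at 300.2, 202 and 227 CPM against 135, 196 and 180.2 (0.51 ± 0.188), with no overlap. Nr1h4, the bile acid receptor FXR, was at 163, 147 and 162 CPM against 127, 138 and 143 (0.21 ± 0.0757), and every LDP male exceeded every control. Abcb4, the phospholipid exporter of bile, was the lower one, at 258, 327 and 297 CPM against 433, 348 and 331 (-0.33 ± 0.123).

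Fatty acid synthesis was higher mainly in LDP males 8 and 10. Of 21 genes 16 were higher, 6 with an unadjusted p under 0.05, and 0 were lower at that p. The median of 0.25 was 0.41 without LDP male 11, 0.08 without LDP male 10 and 0.16 without control male 5. Fasn, fatty acid synthase, was at 248, 243 and 158 CPM against 109.9, 163 and 143 (0.64 ± 0.218). Acly, which supplies cytosolic acetyl-CoA to fatty acids and sterols, was at 188, 166 and 132 CPM against 103, 118 and 126 (0.48 ± 0.132). Fads1, a desaturase of polyunsaturated fatty acids, was at 483, 545 and 417 CPM against 354, 377 and 386 (0.37 ± 0.103). All LDP males exceeded all controls in Acly and Fads1, while for Fasn LDP male 11 fell inside the control range. Scd1, the stearoyl-CoA desaturase, was at 4967, 6186 and 2670.5 CPM against 3461, 3565 and 4012 (0.32 ± 0.294), with LDP male 10 the highest and LDP male 11 the lowest of the 6 mice. Srebf1, the SREBP gene of lipogenesis, was at 154, 96.3 and 135 CPM against 80.7, 139 and 104, with overlap (0.25 ± 0.253).

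Genes of triglyceride synthesis and lipid droplets were lower in 21 of 33, 5 with an unadjusted p under 0.05, and 1 was higher at that p. The median of -0.11 became -0.05 with control male 5 left out and -0.06 with LDP male 10 left out. Gpat4, an acyltransferase of glycerolipid synthesis, was at 184, 201 and 204 CPM against 220.1, 246 and 275 (-0.33 ± 0.0929). Gpd1, which makes glycerol 3-phosphate, was at 239, 279 and 326 CPM against 478, 336 and 334 (-0.44 ± 0.170). In both genes all LDP males were below all controls. Cd36, the fatty acid translocase, was the higher one, at 59.2, 58.6 and 45.9 CPM against 48.6, 37.5 and 45.9 (0.31 ± 0.127), with LDP male 11 inside the control range.

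Genes of fatty acid oxidation and targets of PPARA were lower in 40 of 46, 2 with an unadjusted p under 0.05, by a median of -0.16. Slc22a5, the plasma membrane carnitine transporter, was at 29.1, 27.9 and 34.7 CPM against 43.5, 33.998 and 38.8 (-0.34 ± 0.111). Slc25a20, the mitochondrial carnitine carrier, was at 109, 116 and 132 CPM against 166, 129 and 137 (-0.28 ± 0.110). LDP males 8 and 10 were below every control in both genes, and LDP male 11 was the highest LDP mouse in both and in 38 of the 46 genes. Without LDP male 11, 20 of the 46 were lower at an unadjusted p under 0.05, against 5.76% of all genes, and the median was -0.23. Leaving out control male 5 gave -0.05, and leaving out LDP male 8 gave -0.09.

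The inducible fatty acid omega-hydroxylases show how single mice crossed the groups. Cyp4a14 was at 157 and 62.1 CPM in LDP males 8 and 10, 1106 in LDP male 11, 1131 in control male 5 and 193 and 190.5 in control males 6 and 7. Cyp4a10 was at 415 and 292 CPM in LDP males 8 and 10, 965 in LDP male 11, 1459.6 in control male 5 and 432 and 557 in control males 6 and 7. LDP male 11 and control male 5 stood together above the other mice in both. These genes have close copies, between which reads may be split.

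Spry4 encodes a Sprouty protein, a feedback inhibitor that signalling from receptor tyrosine kinases induces and that dampens the MAP kinase pathway. The gene lies on chromosome 18 at 38586247 to 38601415 (GRCm38). Its level was 16.04, 15.8 and 15.8 CPM in LDP males 8, 10 and 11 and 26.02, 27.97 and 27.7 CPM in control males 5, 6 and 7. The 3 LDP males nearly coincided, LDP male 11 included, and all lay below all controls. Spry4 fell by 0.78 ± 0.0646 on the log2 scale (edgeR's quasi-likelihood test with Benjamini-Hochberg adjustment, adjusted p = 0.00998). The adjusted p was 4.70e-16 by DESeq2 and 0.00212 by edgeR without LDP male 11. With LDP male 8 left out edgeR's adjusted p rose to 0.140, and with control male 6 or 7 left out it was 0.162 or 0.164, although the log2 difference held between -0.76 and -0.79. It was 1.0 in a fit that both estimated the spread together with the females and tested only the 12747 gene names in both tables.

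The list of receptor tyrosine kinase signalling showed no common direction, with 19 of 43 genes higher, 24 lower, Spry4 among them, and a median of -0.01. The relatives Spry1, Spry2, Spred1 and Spred2 overlapped between the groups, with differences of 0.11, 0.00, -0.15 and -0.05. Dusp6, a MAP kinase phosphatase induced by that pathway, was at 25.8, 19.7 and 40.6 CPM against 34.8, 24.2 and 29.8 (-0.05 ± 0.294), so the controls lay within the LDP range. Errfi1, an inhibitor of the EGF receptor, was at 1846, 1751 and 1925 CPM against 1855, 1882 and 1890.1 (-0.03 ± 0.0785), with overlap. Egfr, the EGF receptor, was the 1 member higher at an unadjusted p under 0.05, at 1106, 1054 and 1257 CPM against 927, 843 and 884 (0.36 ± 0.0911, unadjusted p = 0.00302, DESeq2 adjusted p = 0.0457). Shb, an adaptor of these receptors, was lower at 29.995, 28.8 and 36.3 CPM against 43.3, 39.1 and 43.2 (-0.40 ± 0.0950). Tgfa, a ligand of the EGF receptor, was lower at 20.98, 25.6 and 24.4 CPM against 29.3, 27.6 and 27.7 (-0.25 ± 0.0833). Dusp4, another phosphatase of the pathway, was at 3.43, 3.18 and 2.03 CPM against 3.53, 4.39 and 4.72 (-0.55 ± 0.208). The groups were apart in Egfr, Shb, Tgfa and Dusp4.

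**Figure D3:**
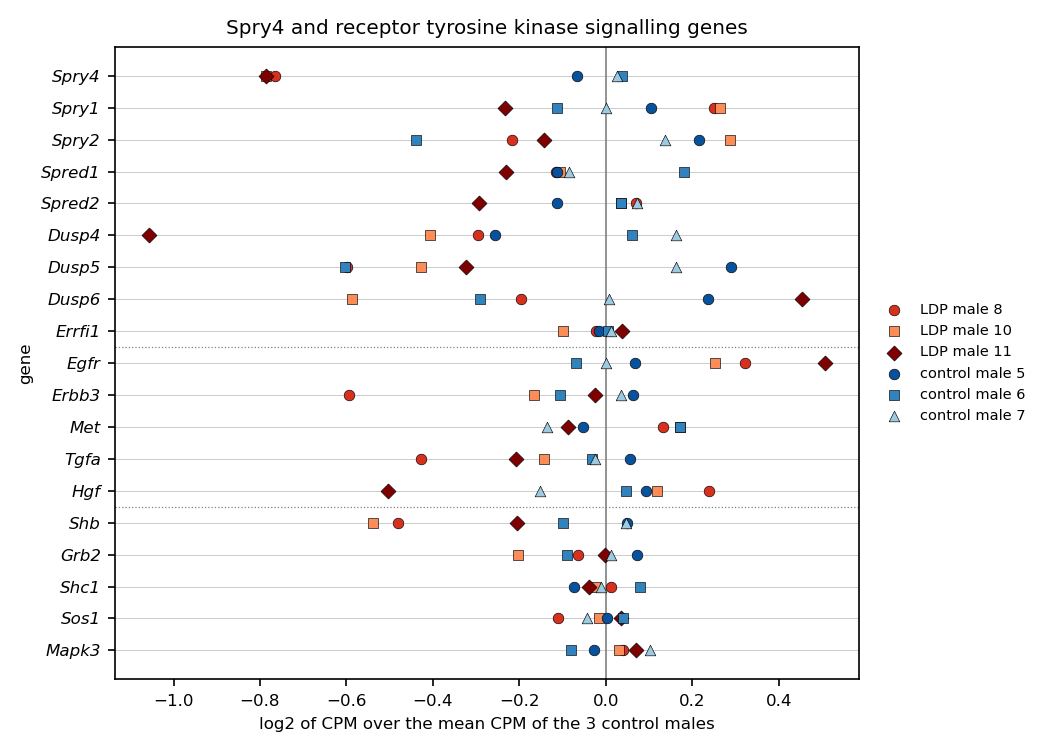
Each point is 1 mouse, placed by log2 of its CPM over the mean of the 3 controls, for 19 genes of receptor tyrosine kinase signalling and its feedback. The LDP males nearly coincide below the controls for Spry4, whereas for Spry1, Spry2, Spred1 and Spred2 the groups overlap.

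Kupffer cell markers were lower as a set. All 12 tested were lower on average, 8 with an unadjusted p under 0.05 and 6 without overlap, by a median of -0.28. Leaving out LDP male 11 gave a median of -0.25, and leaving out control male 5 gave -0.17. By edgeR with adjustment over all genes 0 of 12 passed, and DESeq2 called 1, Cd5l. Cd5l, a secreted scavenger protein of liver macrophages, was at 89.2, 98.7 and 90.5 CPM against 132, 126 and 109 (-0.40 ± 0.0854, unadjusted p = 0.00114, DESeq2 adjusted p = 0.0289). Timd4, a receptor of long-lived Kupffer cells, was at 7.83, 8.40 and 7.79 CPM against 11.3, 10.4 and 9.24 (-0.36 ± 0.102). C1qa, a chain of complement C1q that macrophages make, was at 40.6, 40.9 and 37.5 CPM against 54.7, 45.5 and 44.5 (-0.28 ± 0.0891). All LDP males were below all controls in each of them. Folr2, a folate receptor of resident macrophages, was also apart, at 11.4, 11.3 and 9.75 CPM against 15.3, 13.6 and 12.2 (-0.33 ± 0.108). Clec4f, a lectin receptor of mouse Kupffer cells, was lower in LDP male 11 than in any other mouse, and it was at 139, 132 and 113 CPM against 176, 136 and 139 (-0.23 ± 0.117). The 12 markers summed to 489 to 534 CPM in LDP males and 577 to 702 CPM in controls. In bulk liver, fewer cells of a type and less RNA per cell cannot be told apart.

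**Figure D4:**
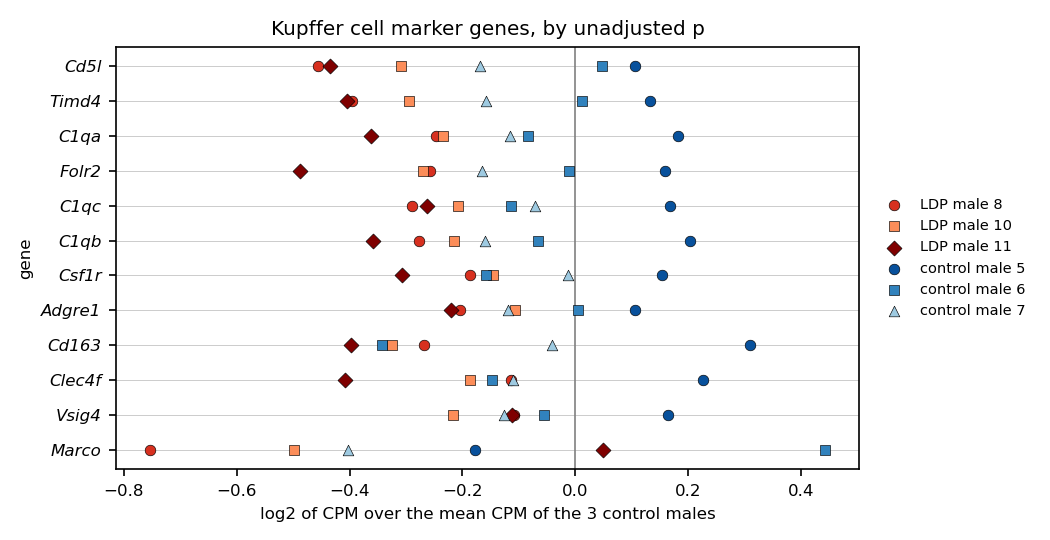
Each point is 1 mouse, placed by log2 of its CPM over the mean of the 3 controls, for 12 Kupffer cell markers ordered by p. All 12 are lower on average in LDP males, 6 of them without overlap.

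Other leukocyte markers were sparse. Of 9 markers of monocytes and recruited macrophages 7 were lower, 2 with an unadjusted p under 0.05, and the median of -0.25 was -0.70 without LDP male 10. Lyz2, the myeloid lysozyme, was at 39.8, 37.3 and 40.4 CPM against 44.9, 48.7 and 43.1 (-0.22 ± 0.0705), with no overlap. All 8 B and plasma cell markers were higher on average, 1 with an unadjusted p under 0.05. Their median of 0.43 became 0.21 with LDP male 8 left out and 0.14 with control male 7 left out. Ighm, the heavy chain of IgM, was at 5.71, 6.61 and 4.28 CPM against 2.94, 3.77 and 2.77 (0.81 ± 0.187), with every LDP male above every control. Of 10 sinusoidal endothelium markers 0 had an unadjusted p under 0.05 by edgeR, and DESeq2 called 0.

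Interferon response genes differed among the LDP males. Of 47 genes 41 were lower, 3 with an unadjusted p under 0.05, and LDP male 11 was the lowest LDP mouse in 43. The median of -0.21 became 0.00 with LDP male 11 left out and -0.46 with LDP male 10 left out. Ifit1, an interferon-induced RNA-binding protein, was at 14.5, 20.3 and 6.77 CPM against 15.5, 14.6 and 17.6, and LDP male 11 was below and LDP male 10 above all other mice. Bst2, the antiviral protein tetherin, was lower in every LDP male, at 68.6, 72.8 and 75.5 CPM against 89.1, 95.2 and 86.4 (-0.32 ± 0.0682, edgeR unadjusted p = 0.00110, DESeq2 adjusted p = 0.0360). MHC class II genes split the LDP males too, with a median of -0.23 over 12 genes that was -0.59 without LDP male 10. Cd74, the invariant chain, was at 49.7, 86.5 and 51.2 CPM against 103, 75.03 and 71.3 (-0.41 ± 0.268), with LDP male 10 inside the control range and LDP males 8 and 11 below it. Ctss, which trims that chain, was at 37.2, 42.6 and 33.1 CPM against 51.2, 46.8 and 43.4 (-0.32 ± 0.101), with no overlap.

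Acute phase and inflammatory genes went both ways. Of 49, 4 were higher and 3 lower at an unadjusted p under 0.05, and the median was -0.03. Hamp, which encodes the iron hormone hepcidin, was at 230.4, 278 and 225 CPM against 199, 133 and 191 (0.49 ± 0.162). Orm2, an acute phase glycoprotein, was at 2.88, 3.44 and 2.63 CPM against 4.61, 3.77 and 6.73 (-0.75 ± 0.217). The groups were apart in both genes, in opposite directions. Tfrc, the transferrin receptor, was lower in every LDP male, at 18.7, 15.8 and 16.8 CPM against 21.2, 21.4 and 21.5 (-0.32 ± 0.0777).

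Heat shock and ER stress genes were lower in 33 of 38, 6 with an unadjusted p under 0.05, by a median of -0.16. Hsph1, a cytosolic chaperone of the heat shock response, was at 59.98, 80.9 and 96.6 CPM against 103, 112 and 98.9 (-0.41 ± 0.164), with all LDP males below all controls and LDP male 11 next to them. Hsp90aa1, the inducible HSP90, was at 83.8, 101 and 121 CPM against 138, 133 and 115 (-0.33 ± 0.135), with LDP male 11 inside the control range. LDP male 11 was the highest LDP mouse in 30 of the 38. With that mouse left out 16 were lower at an unadjusted p under 0.05, against 5.76% of all genes, and the median was -0.26. Without LDP male 8 the median was -0.10.

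Lists on drug metabolism, the clock and sex bias held few differences. Of 30 cytochrome P450 and xenobiotic receptor genes, Cyp3a13 was higher at 231, 176 and 223 CPM against 172, 175 and 159 (0.32 ± 0.105) and Por was lower. Por, the reductase that feeds electrons to P450 enzymes, was at 388, 412 and 402 CPM against 451, 431 and 493 (-0.19 ± 0.0787), with no overlap. Of 30 conjugation genes 3 were higher at an unadjusted p under 0.05, among them the sulfotransferase Sult1a1 at 336, 231 and 284 CPM against 198, 219.7 and 214 (0.43 ± 0.127). Of 20 clock genes 1 was higher and 1 lower at that p, and the lower one was Cry1 (-0.46 ± 0.175), a repressor of the clock. Of 25 male-biased genes 22 were lower, and the 3 with an unadjusted p under 0.05 were major urinary protein genes, whose near-identical copies share reads. Their median of -0.16 became -0.05 with LDP male 8 left out and -0.09 with control male 7 left out. Abcd2, a peroxisomal fatty acid transporter, was the 1 of 18 female-biased genes higher at that p, at 46.9, 51.9 and 35.9 CPM against 29.04, 30.2 and 19.4 (0.78 ± 0.210, DESeq2 adjusted p = 0.0145), with every LDP male above every control.

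Extracellular matrix genes varied among the LDP males. Of 37 genes 0 had an unadjusted p under 0.05 by edgeR and DESeq2 called 0, and the median was 0.09. The median was 0.29 without LDP male 11, with 11 genes higher at an unadjusted p under 0.05, against 7.45% of all genes. With LDP male 10 left out the median was -0.24. Col3a1, a fibrillar collagen, was at 58.1, 136 and 25.7 CPM against 58.5, 76.8 and 55.97, with LDP male 10 the highest and LDP male 11 the lowest of all mice. Mesothelial markers summed to 9.57, 10.2 and 2.37 CPM in LDP males 8, 10 and 11 and to 2.58, 7.17 and 4.38 CPM in controls, and stellate cell markers to 547, 677 and 316 CPM and 503, 515 and 440 CPM. The part of these cells in the matrix values was not tested.

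**Figure D5:**
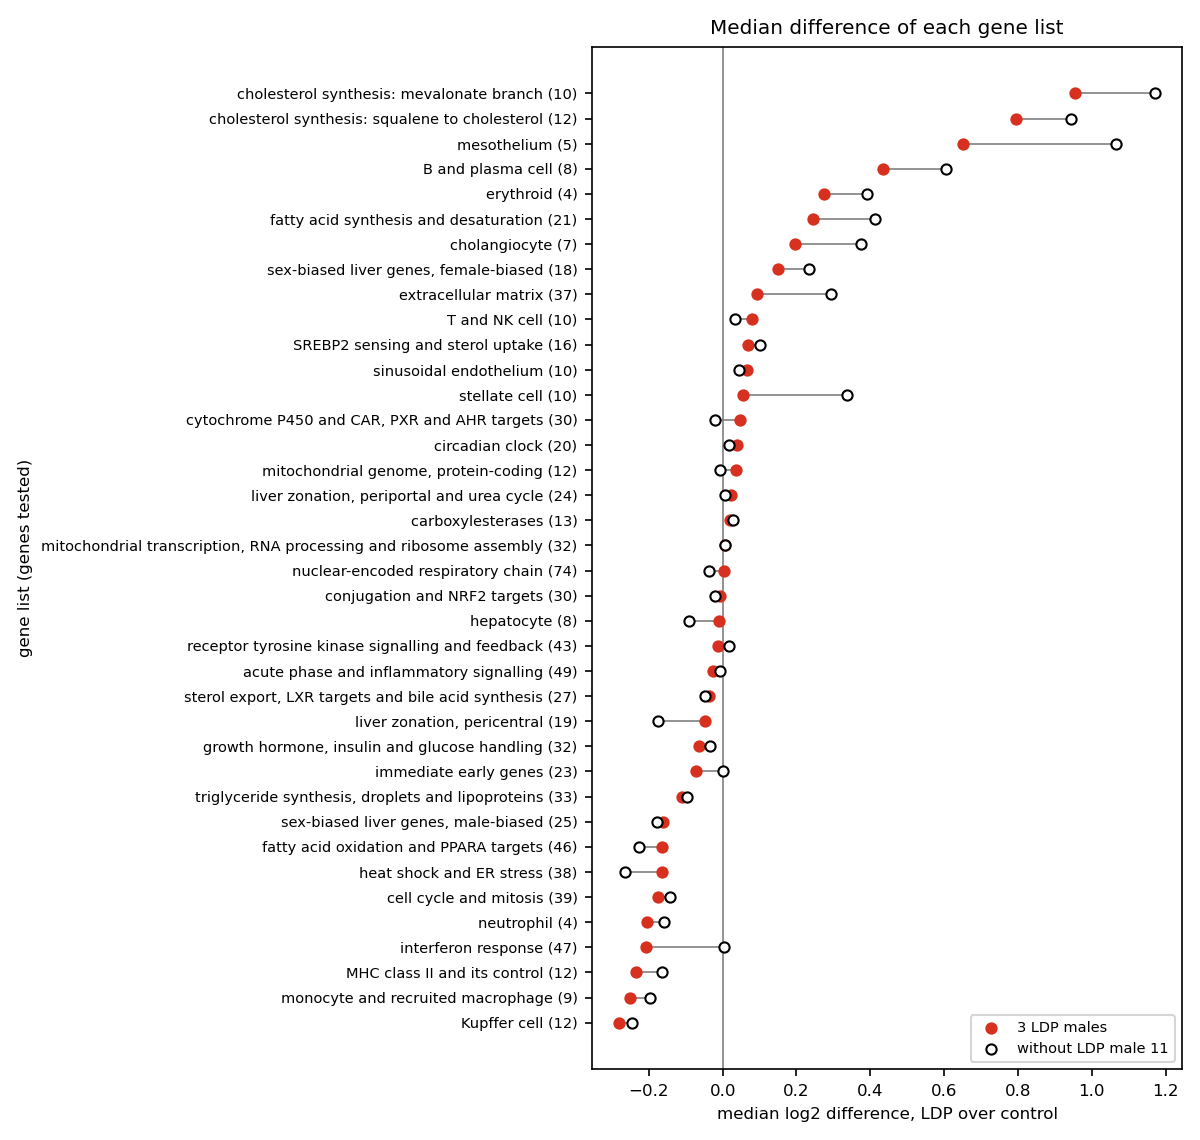
Median log2 difference of each gene list with at least 4 genes tested, over all mice (filled) and without LDP male 11 (open). The cholesterol synthesis lists lie at 0.96 and 0.80 over all mice, and the interferon list moves from -0.21 to 0.00 without LDP male 11.

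The mitochondrial genome encodes 13 proteins of the respiratory chain and both RNAs of the mitochondrial ribosome. Its transcripts took 5.55, 5.39 and 5.80% of counts in LDP males 8, 10 and 11 and 5.20, 5.50 and 5.68% in control males 5, 6 and 7. The means were 5.58% ± 0.210 and 5.46% ± 0.244 (SD, n = 3 each), with overlap (exact two-sided permutation p = 0.5, where 3 against 3 cannot go below 0.1). Of 12 protein-coding transcripts tested, 5 are not read as levels, given their counts and nuclear copies. Of the other 7, 0 had an unadjusted p under 0.05 by edgeR, 0 were free of overlap and DESeq2 called 0. mt-Co1, a core subunit of cytochrome oxidase, was at 20027, 18603 and 21431 CPM against 17886, 19747 and 20010 (0.06 ± 0.0972). mt-Cytb, of complex III, was at 11043, 10096 and 11445 CPM against 10481, 10242 and 10678 (0.05 ± 0.0886). The complex I transcripts mt-Nd1, mt-Nd2, mt-Nd4, mt-Nd5 and mt-Nd6 differed by 0.02, 0.03, 0.04, 0.07 and -0.04, within their spread. Annotated nuclear copies matched mt-Co1 over 482 of 483 aligned bases (31.3% of the transcript) and mt-Nd4 over 876 of 876 (63.6%). The part of reads shared with these copies was not tested.

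The remaining protein-coding transcripts of the mitochondrion had far fewer counts. While mt-Co1 had 1303750 to 1491795 counts per mouse, mt-Co2 had 9 to 28, mt-Atp8 4 to 6, mt-Atp6 13 to 28, mt-Co3 57 to 149, mt-Nd4l 30 to 50 and mt-Nd3 531 to 880. Annotated nuclear copies on chromosome 1 matched mt-Co2 over 681 of 681 aligned bases, mt-Atp6 over 678 of 678, mt-Co3 over 783 of 783 and mt-Nd3 over 344 of 345. These transcripts are not read as levels and made up little of the mitochondrial share of counts. The part of reads with more than 1 match was not tested.

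The ribosomal RNAs of the mitochondrion split the LDP males. mt-Rnr1, of the small subunit, was at 372, 391 and 622 CPM against 602, 598 and 507 (-0.30 ± 0.203). mt-Rnr2, of the large subunit, was at 793, 832 and 1326 CPM against 1327, 1252 and 1107 (-0.32 ± 0.202). LDP males 8 and 10 were below every control in both, and LDP male 11 was level with the highest control. Without LDP male 11 the edgeR adjusted p was 0.0466 for mt-Rnr1 and 0.0426 for mt-Rnr2, with log2 differences of -0.58 and -0.60.

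Nuclear genes of the respiratory chain differed little. Of 74 nuclear-encoded respiratory chain genes 0 had an unadjusted p under 0.05 by edgeR, DESeq2 called 0, and the differences ran from -0.11 to 0.11. Atp5b, the catalytic subunit of ATP synthase, was at 1198, 1132 and 1191 CPM against 1209, 1191 and 1192 (-0.03 ± 0.0740), with overlap. Of 32 genes of mitochondrial transcription, RNA processing and ribosome assembly 0 had an unadjusted p under 0.05 by edgeR and DESeq2 called 0.

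Outside the lists, the genes of smallest p had mixed roles. Mmab, a vitamin B12 enzyme, was at 27.6, 26.3 and 20.4 CPM against 14.5, 15.4 and 17.2 (0.66 ± 0.119). Pstpip2, an adaptor of myeloid cells, was at 8.59, 7.50 and 7.71 CPM against 4.38, 5.24 and 5.26 (0.68 ± 0.117). Arhgap6, a GTPase-activating protein, was at 13.9, 7.87 and 10.6 CPM against 5.43, 5.69 and 5.18 (0.99 ± 0.190). All LDP males exceeded all controls in the 3 genes, and exons of Arhgap6 overlap those of Hccs on the other strand over 1335 bases. Fam47e (0.66) and Scpep1 (0.42) were also higher without overlap. On the lower side, Wnk4, a kinase of ion transport, was at 2.44, 3.29 and 3.84 CPM against 4.77, 6.21 and 5.52 (-0.79 ± 0.180, DESeq2 adjusted p = 0.0233). Pfkfb3, which makes an activator of glycolysis, was at 101, 125 and 119.5 CPM against 160.1, 148 and 139 (-0.37 ± 0.0935). Pik3ap1, an adaptor of PI3 kinase, was at 44.8, 55.9 and 46.8 CPM against 65.6, 59.6 and 61.7 (-0.34 ± 0.0900). All LDP males were below all controls in these 3. Adcy1 (-0.74), Ttll8 (-0.66), Rec8 (-0.81) and Setd1b (-0.30) were lower without overlap too, and of the genes in this paragraph 0 passed edgeR's adjusted p.

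Of the 12 genes with the highest mean count, albumin was the 1 with an unadjusted p under 0.05. Alb was at 82330, 75515 and 71558 CPM against 65427, 67691 and 57449 (0.27 ± 0.106, unadjusted p = 0.0326), with every LDP male above every control. Its share of counts was 7.64% ± 0.626 in LDP males and 6.36% ± 0.488 in controls (SD, n = 3 each, exact two-sided permutation p = 0.1, the smallest this design allows). Cyp2e1, a P450 of cells around the central vein, was at 10398, 9695 and 13246 CPM against 12617, 12807 and 12337 (-0.18 ± 0.122), with LDP male 11 the highest of all mice and LDP males 8 and 10 the lowest.

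The difference in males was set against that in females, 3 LDP and 3 control mice of the same strain, over 12747 genes named in both tables. By edgeR 0 genes (0%) differed in response between the sexes at an adjusted p of 0.05, 345 (2.71%) had an unadjusted p under 0.05, and DESeq2 called 1, Atf3. Atf3, a stress-induced transcription factor, had a log2 difference of -0.86 in males and 1.76 in females (difference -2.63 ± 0.547, edgeR unadjusted p = 0.000352). The interferon-induced genes Rsad2 and Cmpk2 had -0.48 and -0.55 in males and 0.65 and 0.66 in females (edgeR unadjusted p = 0.000548 and 0.00104). Among the males, LDP male 10 lay inside the control range in both. In the other direction, Hist2h2be had 0.61 in males and -0.30 in females, and Pclo 0.89 and -0.70 (edgeR unadjusted p = 0.000809 and 0.00122). In this joint fit of both sexes, Hmgcs1 had 1.36 in males and -0.30 in females (difference 1.66 ± 0.510, edgeR unadjusted p = 0.00845). Sqle had 1.77 and 0.23 (difference 1.55 ± 0.950, edgeR unadjusted p = 0.137), and Spry4 -0.78 and -0.27 (difference -0.51 ± 0.320, edgeR unadjusted p = 0.137). None of these genes passed edgeR's adjustment for the difference, so a response particular to males was not shown. Sex and count table are the same split and cannot be told apart.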

How the data were processed

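RNA of whole liver was measured by RNA-seq in 6 males of a series of 18 samples. Per the labels' protocols, extraction used the RNeasy Mini Kit (Qiagen) and library preparation TruSeq v2; strandedness is not stated there. Per the submitters' processing notes, the tools were featureCounts 1.4.3-p1, STAR 2.3.0e, DESeq and HTSeq 0.5.3p9 and the build mm10, with no role given for each. The authors deposited raw read counts per gene and a gene length column, for males in 1 table and for the other samples in another. Samples were matched to columns by title, and 0 columns of per-sample values were left unmatched.

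Of 38924 gene IDs, 37607 (96.62%) matched a symbol in GENCODE M21 (GRCm38), and the others held 0.14% of counts. Counts were tested with edgeR 4.0.16 in R 4.3.3, on the 6 males alone. The settings were TMM factors and filterByExpr with a minimum count of 10 and a minimum total of 15. The test was the robust quasi-likelihood F test with a Benjamini-Hochberg threshold of 0.05. The scripts were tested on simulated data. Depth was 70336366 to 74418889 counts per mouse. DESeq2 1.42.0 was an alternative, and its adjusted p, missing for 3592 genes, was left missing. Other alternatives changed the scaling, the filter on low counts, the mitochondrial genes, the dispersion fit and the mice included. Males and females were compared as a difference of effects over 12747 shared names. Shares of counts were compared by exact permutation.

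The mice compared and the gene lists were chosen with earlier results of these data known. Named genes were drawn from those past the threshold and the 12 of smallest p in each direction. The 12 were taken among genes with no overlap between groups and a mean of 1 CPM or more. Their symbol was not a Gm number, a Rik or a clone name. List members of highest level per length or smallest p or needed for their role were named too. The mitochondrial transcripts and the 12 genes of highest count were added. For the sex difference, only some of the 5 of smallest p in each direction are named. Hmgcs1, Sqle and Spry4 are shown there outside that rule. Promoter windows came from RefSeq (GRCm38.p6). The replicates are separate mice, but nothing says whether they shared a cage or litter. Some members of the lists are counted in them but not reported here by name.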

Additional observations from a re-analysis of the deposited data

How the results depend on the processing

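Each group held 3 mice, and LDP male 11 stands apart from the other LDP males. Against 1 gene past the adjusted threshold, edgeR without a filter gave 2 (Spry4 and Erg28), DESeq2 gave 42, a fit that shared the spread with females and tested only the 12747 names in both tables gave 0 (with 271 higher and 171 lower at an unadjusted p under 0.05), and leaving out 1 mouse gave 0 to 66. The 0 came with LDP male 8, control male 6 or control male 7 left out, 2 genes passed with LDP male 10 left out, and the 66 came with LDP male 11 left out. At an unadjusted p under 0.05, leaving out 1 mouse gave 236 to 1172 higher genes, against 490, and 148 to 907 lower genes, against 318. The lowest counts were without LDP male 8 and the highest without LDP male 11. For the difference in response between the sexes, DESeq2 gave 1 gene against 0, and leaving out 1 mouse gave 0 to 1, with 1 without LDP male 10. The mitochondrial share differed by 0.12 percentage points (exact permutation p = 0.5), and by -0.0204 points without the 20 genes of highest count (exact permutation p = 0.8).

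Of 246 list medians with 1 mouse left out, 21 moved by more than the spread between mice, and of 363 under other alternatives 1 did. Over 121 genes followed, 1736 values kept their side of the threshold, 56 became past it and 4, all of Spry4, were no longer past it. These counts do not say whether a difference near 0 changed sign. No paired analysis was possible because the groups share no replicate numbers.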

Other observations

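Some genes called without LDP male 11 had that mouse on the other side of the controls from LDP males 8 and 10. Gadd45g, a stress-induced growth arrest gene, was at 47.2, 42.8 and 6.51 CPM against 28.9, 25.3 and 23.2, in the order LDP males 8, 10 and 11 and control males 5, 6 and 7. Arrdc3, an arrestin-related gene, was at 85.9, 104 and 240.4 CPM against 166, 161 and 194. Igfbp3, which binds insulin-like growth factors in blood, was at 40.4, 47.5 and 17.6 CPM against 25.6, 22.5 and 25.6. Col14a1, a collagen associated with fibrils, was at 121, 144 and 44.4 CPM against 83.1, 83.7 and 77.7. LDP males 8 and 10 lay above the controls in Gadd45g, Igfbp3 and Col14a1 and below them in Arrdc3, and LDP male 11 lay beyond the controls the other way in each.

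Cyp17a1, a steroid hydroxylase among the female-biased genes, was at 35.5, 9.83 and 14.7 CPM against 9.47, 7.34 and 6.40 (1.37 ± 0.539, edgeR unadjusted p = 0.0524), with LDP male 8 far above the rest. Cyp7b1, an oxysterol hydroxylase among the bile acid genes, was at 179.8, 302 and 351 CPM against 403, 376 and 359.9 (-0.45 ± 0.236), with LDP male 8 far below the rest. Rdh11, a retinol dehydrogenase outside the lists, chosen after its values were seen, was at 57.4, 56.2 and 31.3 CPM against 19.3, 21.1 and 22.2 (1.21 ± 0.239, DESeq2 adjusted p = 3.16e-06), with LDP male 11 between the controls and LDP males 8 and 10.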
